A study of Saccharomyces cerevisiae with 8 samples.

Results

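The sites described here are Rpb1 loci found after 6 h in galactose and absent from the peak lists made before it, in budding yeast. Each locus is the point midway between a summit listed in 6 h replicate 1 and its closest partner in 6 h replicate 2, given that the pair lay no more than 250 bp apart. It counted as gained when neither 0 h list had a summit within 500 bp of that midpoint. By this rule 216 of 809 6 h loci were gained, out of 4742 summits in all 4 lists. The members were chosen by the summit positions of both time points, so their counts, scores and distances to 0 h summits are descriptions and carry no test.

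All cultures were of strain AM1003, which carries a galactose-driven HO endonuclease (GAL::HO) that cuts DNA at its recognition site. The 0 h group was grown overnight in raffinose medium and left untreated, and the 6 h group received 2% galactose for 6 h, which induces the break as well as the genes of galactose use. Each group had 2 libraries from chromatin immunoprecipitation with an antibody against Rpb1, and the 4 matching input samples were not analysed here. Whether the replicates are separate cultures is not stated, so their spread may be technical. No group received galactose without the break, so effects of the sugar and of the break cannot be told apart. The stated question of the series is how RNA polymerase II is distributed on genes of the template of break-induced replication while that replication runs.

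Rpb1 is the largest, catalytic subunit of RNA polymerase II, the enzyme that transcribes protein-coding genes and most small nucleolar RNA genes. In immunoprecipitated chromatin it marks where polymerase sits along a gene, from the promoter through the coding region to the region past the stop codon where transcription ends. In yeast, galactose relieves the repressor Gal80 from the activator Gal4 and turns on the genes of galactose uptake and breakdown. A summit is the highest point of a called peak, and its score is the caller's −log10 significance. Scores were not normalized between libraries and say how clearly a peak stood out within its own list. A missing summit does not show that polymerase was absent.

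Between 1074 and 1288 summits were listed per library, with medians of the score from 7.24 to 9.75. Read depth is unknown. Positions could be set beside the R64 gene annotation on 8 of 16 chromosomes, namely II, V and XI to XVI. There, 67.4% to 91.2% of landmark genes (for ribosomal proteins, translation factors and glycolysis) had a summit no more than 250 bp away, averaged over the libraries, and the best match needed a shift of at most 200 bp, so distances to gene ends carry an uncertainty of that order. These 8 chromosomes held 123 of the gained loci and 3432 protein-coding genes. The other 93 gained loci are described by position only, as the deposited coordinates give it, since the genome build is not stated.

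Gained loci made up 26.7% of the 6 h loci (exact Clopper-Pearson 95% interval, 23.7% to 29.9%, covering counting error only). Of the 593 loci that were kept, 438 had a summit of both 0 h libraries within 500 bp and 155 of only 1 of these libraries. The same rule turned around gave 214 of 759 0 h loci with no 6 h summit, or 28.2%. Losses and gains of sites were therefore of similar number. The rule rests on agreement between replicates: the count was 143 when the 6 h summits had to lie within 100 bp, and 114 with the better-scoring 50% of summits. With 6 h replicate 2 alone 357 summits qualified, and with 6 h replicate 1 alone 470. In 4 gained loci the replicate 2 summit was shared with another gained locus, so the 216 loci rest on 214 separate replicate 2 summits.

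Every chromosome had gained loci. Their share of the 6 h loci ran from 18.0% on chromosome V (9 of 50) to 54.5% on chromosome I (6 of 11). Chromosome III, which carries the mating-type locus, the natural target of HO, had 11 of 28 (39.3%, exact 95% interval 21.5% to 59.4%). Chromosome IX had 11 of 23 (47.8%, 26.8% to 69.4%) and chromosome XIV 18 of 50 (36.0%, 22.9% to 50.8%). Each of the 16 intervals includes the overall 26.7% except that of chromosome IX, whose lower bound is 26.8%, so most of the order of the chromosomes is not resolved at these counts.

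**Figure D1:**
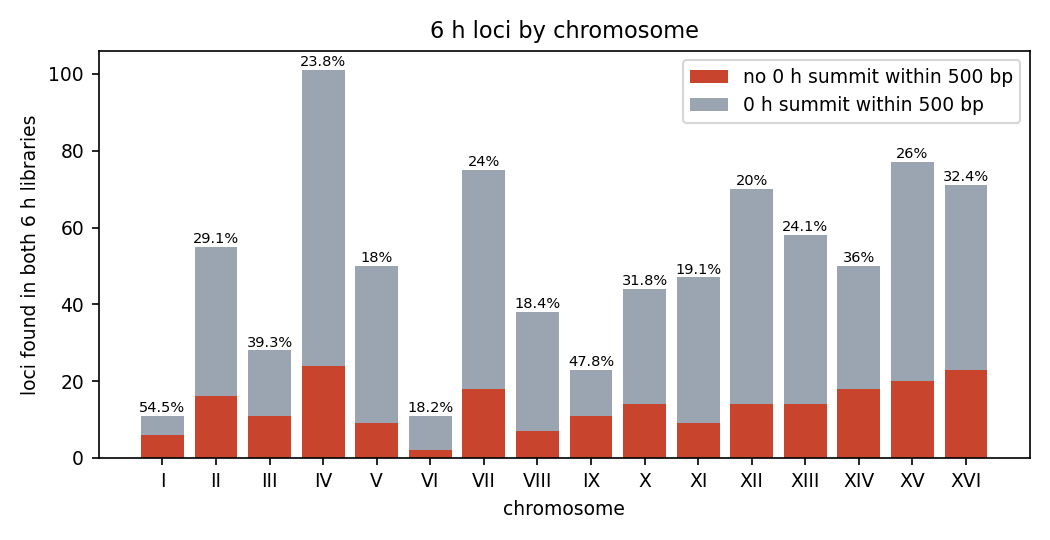
6 h loci counted on each of the 16 chromosomes, split into loci without (red) and with (grey) a 0 h summit within 500 bp. The percentage above each bar is the share without one. It runs from 18.0% on V to 54.5% on I, where only 11 loci were found.

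Gained loci scored lower than kept loci in both 6 h libraries. Their median score was 6.79 in replicate 1 and 6.92 in replicate 2, against 13.8 and 14.8 at kept loci. The ranges overlapped, and ran from 2.00 to 87.9 in replicate 1 and from 2.26 to 147 in replicate 2 at gained loci. Ranked by the lower of the within-library percentiles of its summits, a locus was gained in 46.8% of 190 cases below the 25th percentile, 31.3% of 182 from there to the 50th and 18.8% of 208 to the 75th. The share was lowest, at 11.6% of 146, between the 75th and 90th percentiles, and was 16.9% of 83 above. Weak sites are thus common among the gained loci, and 14 strong ones stand among them. Scores of the 216 gained loci followed each other between replicates (across loci of 1 pair of libraries, Pearson r = 0.903 on log10 scores, Spearman rho = 0.812). The summits of the pair lay a median of 64 bp apart, against 48 bp at kept loci.

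Loci at genes of galactose use held ranks 1 and 3 among the placed gained loci. GAL2, the galactose permease, led the ranking with scores of 86.0 and 147 in 6 h replicates 1 and 2, at 292170 and 292153 bp of chromosome XII. The nearest 0 h summits were 8921.5 and 9021.5 bp away. GAL10, which encodes the epimerase of the pathway, had 81.7 and 118 at 276305 and 276115 bp of chromosome II, 5428 and 14676 bp from a 0 h summit. Both loci lay past the stop codon, by 225.5 and 43 bp, and both stand far from any 0 h peak. The convergent SRL2 also ends within 250 bp of the GAL2 locus, so by position that locus cannot be assigned to either gene.

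Of 9 placed genes of the galactose regulon, 2 had a gained locus in the gene or within 250 bp. Over all placed protein-coding genes this held for 134 of 3432, or 3.9%, and 63 of 3432, or 1.84%, had one inside the gene. GAL1, the galactokinase, also had strong summits at 6 h only, with 87.2 and 131. They lay 451 bp apart, at 1277 and 1728 bp from the start codon, and so formed no locus by the 250 bp rule. GAL80 was likewise left out, since its best summits, with 6.79 and 5.96, lay 837 bp apart. Joining summits within 500 bp brought both genes in. GCY1, a reductase gene with Gal4 control, had a 6 h locus with 40.5 and 54.2, but it was not gained, as 0 h summits with 6.42 and 7.21 lay nearby. No library listed a summit within 250 bp of GAL7 or GAL4. PGM2, a phosphoglucomutase gene, went the other way, with summits of 5.52 and 7.06 at 0 h and none at 6 h. FUR4, the uracil permease, had weak summits in replicate 1 only.

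**Figure D2:**
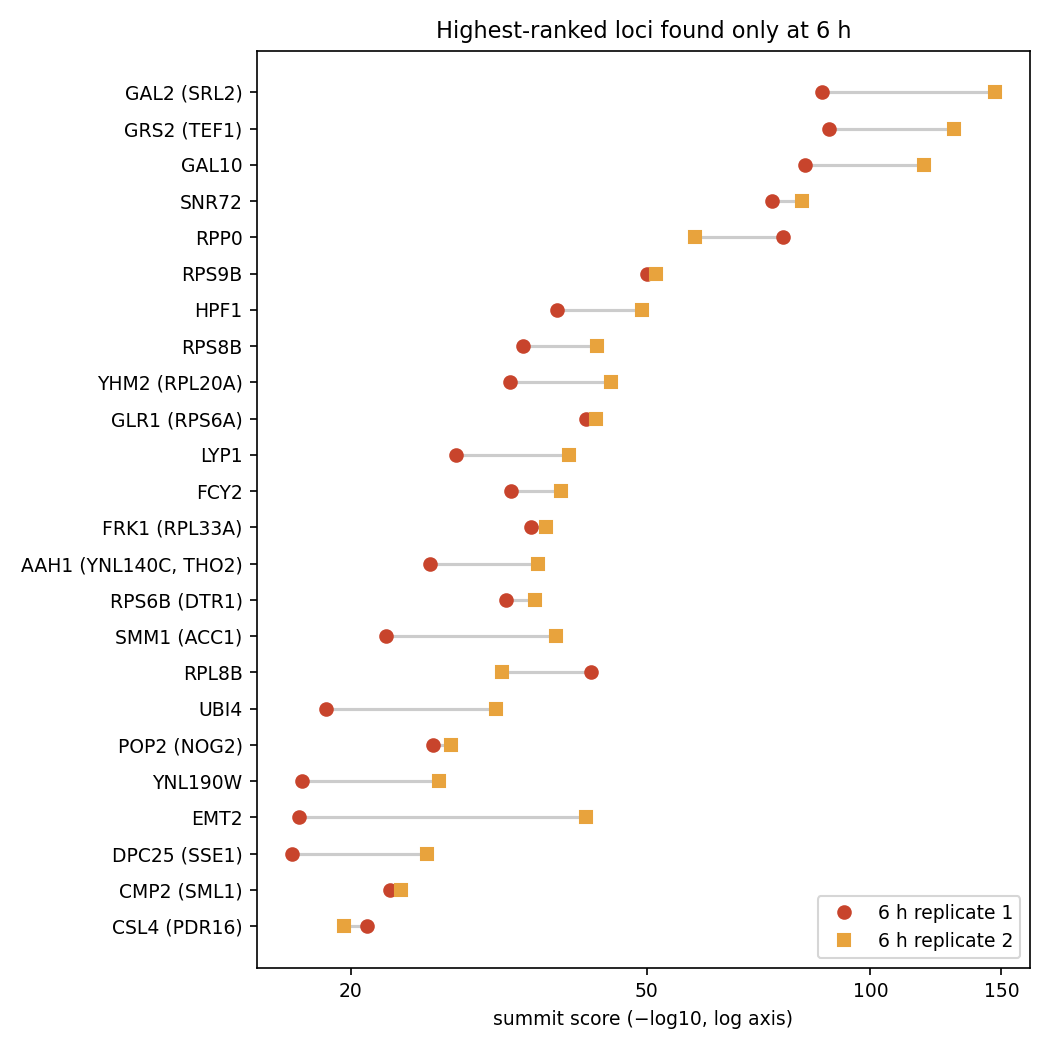
Summit scores of 24 of the 25 highest-ranked gained loci on chromosomes with placed genes (the other is not shown), in 6 h replicate 1 (circles) and replicate 2 (squares), on a log axis of −log10 scores. Each label is the gene at the locus, with other genes that contain it or end within 500 bp before it in brackets. GAL2, the locus past TEF1 inside the 3′ end of GRS2, and GAL10 lead. Neither 0 h list has a summit within 500 bp at any of the 24.

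Most of the 25 highest-ranked loci lay in or past a gene with summits in both 0 h lists, though not always the nearest gene. In 18 of the 25, both 0 h lists had a summit in a gene that contained the locus or ended within 500 bp before it, and 16 lay within 1000 bp of a 0 h summit. Among the other 98 placed gained loci these counts were 13 and 15. Some of the 18 count through a farther gene. The nearer GRS2, GLR1, FRK1, SMM1, DPC25 and CSL4 had no 0 h summit within 250 bp. The highest-ranked case is at TEF1, which encodes translation elongation factor 1 alpha. The locus had scores of 87.9 and 129 and lay 182.5 bp past the TEF1 stop codon, while the 0 h summits, with 104 and 120, sat 657.5 and 823.5 bp upstream of it. The midpoint falls in the 3′ end of GRS2, a convergent gene for a glycyl-tRNA synthetase homologue. Summits carry no strand, so such loci where convergent genes end cannot be assigned to either gene. How reads matching more than 1 site were placed is not given in the sources used here.

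Several of these loci lay at ribosomal protein genes. Of 82 placed members, 10 had a gained locus in the gene or within 250 bp (12.2%, against 3.9% of all placed genes). As 55 of the 82 had a 6 h locus of any kind, 10 of 55 is below the 24.4% of all placed genes with a 6 h locus that had a gained one. RPP0, the stalk protein that binds the other P proteins, had 76.2 and 58.2 at 6 h, 46 bp past its stop codon. At 0 h its summits, with 56.9 and 69.0, lay 240 and 258 bp from the start codon. At RPS9B the 6 h summits of both replicates fell on the same base, 605474 of chromosome II, with 50.0 and 51.4, and the 0 h summits, with 38.3 and 41.4, lay 758 and 756 bp upstream.

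Other ribosomal protein loci were alike in layout. RPL8B had 42.1 and 31.9 at 6 h, RPS6A 41.5 and 42.8, RPL33A 34.9 and 36.6, RPS6B 32.3 and 35.4, RPL23A 27.2 and 19.0, and RPL18B 13.1 and 27.0. In each of these 6 genes both 0 h libraries had a summit inside the gene, upstream of the locus. The RPS6A locus lies nearer to the end of the convergent GLR1 (131.5 bp past it, against 206.5 bp), and the RPL33A locus about as near to that of FRK1 (246 against 248 bp), so neither can be assigned to one gene. RPS8B, with 34.1 and 42.9, had its 0 h summits just before the annotated start, 919 and 840 bp from the locus, so it counts below among genes without a 0 h summit. RPL20A, whose stop codon lies 252 bp from a locus with 32.7 and 44.8, falls just outside the 250 bp window, and the locus lies nearer to the convergent YHM2. Except for RPP0, each of these genes has a near-identical copy elsewhere in the genome. How reads matching both copies were placed is not given in the sources used here, so these positions are uncertain to that extent.

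The same layout occurred outside ribosomal protein genes. FCY2, the purine and cytosine permease, had 32.8 and 38.4 at 6 h, 916.5 and 980.5 bp downstream of 0 h summits with 16.3 and 12.7. LYP1, the lysine permease, had 27.7 and 39.3 at a point 27 bp past its stop codon, while the 0 h summits, with 14.6 and 14.5, sat 298 and 92 bp from the start. UBI4, the polyubiquitin gene, had 18.5 and 31.4 at 6 h and 27.1 and 19.4 at 0 h. Downstream of SSE1, an Hsp110 chaperone gene, the scores were 16.7 and 25.3 at 6 h. The 0 h summits inside SSE1 had 4.28 and 2.17, the latter near the lowest score of its list, 2.16. This locus lies nearer to the end of the convergent DPC25 (95 bp past it, against 234 bp), so it cannot be assigned to one gene. Past NOG2, a GTPase gene of large-subunit assembly, the locus had 25.8 and 27.3 and lay 1 bp before the start of POP2, which encodes a deadenylase subunit. Past SML1, which encodes an inhibitor of ribonucleotide reductase, it had 22.6 and 23.3 and lay 105 bp before CMP2, a calcineurin gene.

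ACC1, which encodes acetyl-CoA carboxylase, differed in distance. The locus with 22.3 and 37.8 lay 391 bp past its stop codon, inside the convergent SMM1, while the 0 h summits, with 31.2 and 26.6, sat 815 and 2244 bp from the start codon of this long gene. The 0 h summits in ACC1 and this locus were thus 6277 and 4848 bp apart. No 6 h summit lay within 250 bp of ACC1, so the locus cannot be assigned to one gene. Among genes of respiratory complex III, RIP1 (10.1 and 9.17) and QCR2 (3.99 and 3.58) had gained loci 443.5 and 398 bp past their stop codons and COR1 had one inside the gene, with 0 h summits upstream in all of them. The RIP1 locus is also 153.5 bp past the end of the convergent YEL023C. YNL190W had 17.2 and 26.3 at a locus 468 bp past its stop codon. Its 0 h summits, with 15.1 and 13.9, lay just before the annotated start, 1105 and 1089 bp from the locus. Like RPS8B, it therefore counts below among genes without a 0 h summit.

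Over all placed loci, 118 of 123 had a gene that contained them or ended within 500 bp before them. In 31 of the 118 (26.3%, exact 95% interval 18.6% to 35.2%) at least 1 such gene held summits at 0 h in both replicates, in 6 in 1 replicate, and in 81 in neither. Among kept loci with such a gene, both 0 h replicates had a summit in it for 152 of 329 (46.2%, 40.7% to 51.8%). Since 0 h summits entered the rule, this split is a description. With 0 h summits sought within 1000 bp, 8 of 89 loci remained in the first class, or 8.99%. For 29 of the 31 loci the best 0 h summits of both libraries lay upstream of the locus in the gene. The median distance over the 31 was 753.5 bp in replicate 1 and 786 bp in replicate 2. Of the 31, 23 lay past the stop codon. For these 23 the direction was fixed in advance, since 0 h summits were sought only inside the gene. Only loci inside the gene could go either way, and 2 of them, at HPF1 and BDF1, had their 0 h summits downstream. HPF1, a cell wall mannoprotein gene, had 37.9 and 49.3 at 6 h, 1045.5 bp from its start codon, and 0 h summits 1733.5 and 1096.5 bp further downstream. BDF1, which encodes a bromodomain protein of the general transcription machinery, had 9.36 and 8.28 near its start and 0 h summits downstream.

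The 31 loci at genes with 0 h Rpb1 and the 81 at genes without differed in score. Medians were 22.3 and 27.0 in replicates 1 and 2 for the 31, and 5.52 and 6.32 for the 81. The 81 loci included the galactose genes, so the ranges overlapped. Their nearest 0 h summit lay a median of 3495 bp away, against 726 bp for the 31.

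**Figure D3:**
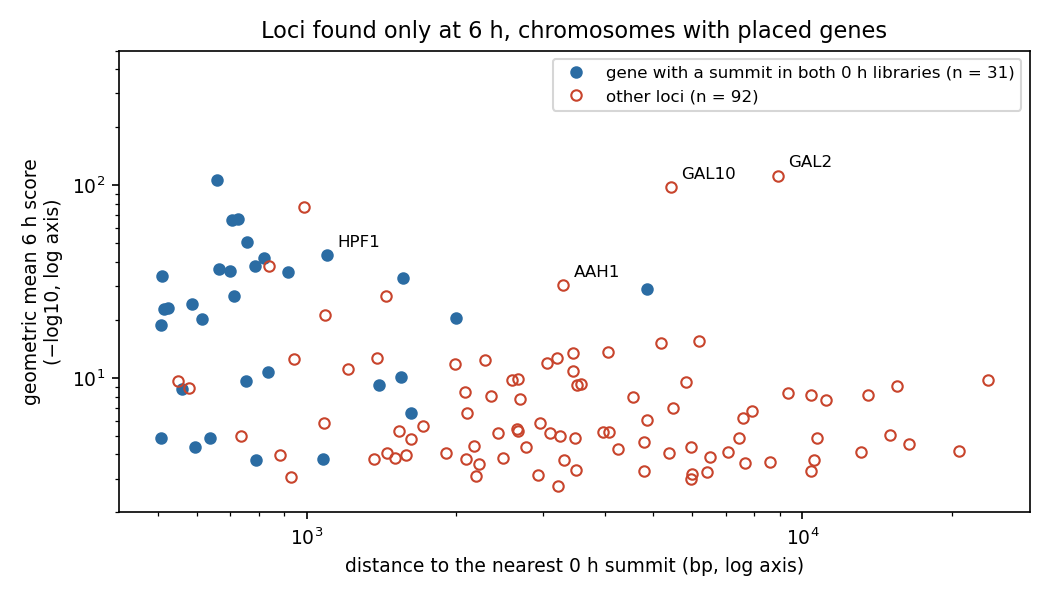
Distance of each of the 123 placed gained loci to the nearest 0 h summit (bp, log axis) against the geometric mean of its scores in the 6 h libraries (log axis). Loci at genes that held summits in both 0 h lists (filled) lie mostly within 1000 bp, while GAL2, GAL10 and AAH1 combine a high score with a long distance, 3293.5 bp at the least.

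Among genes without a 0 h summit, AAH1, which encodes adenine deaminase of purine salvage, ranked next after GAL2, GAL10 and RPS8B. It had 25.6 and 35.7 at 6 h, just before its stop codon, where THO2 and YNL140C end on the opposite strand, and the nearest 0 h summits lay 3293.5 and 4457.5 bp away. MAE1, the mitochondrial malic enzyme, had 12.2 and 14.7. MTD1, a folate enzyme that feeds purine synthesis, had 5.12 and 4.64. PDR12, a weak-acid exporter, had 11.6 and 8.10. RPC37, a subunit of RNA polymerase III, had 11.1 and 8.61 and lay farthest of all placed members from a 0 h summit, at 23725.5 bp. KAP123, an importin for ribosomal proteins, had 2 gained loci, with 7.06 and 11.5 at one and 5.12 and 3.97 at the other. GPD2, a glycerol 3-phosphate dehydrogenase gene, had a summit inside it in 0 h replicate 2 only, 578.5 bp from a gained locus with 7.69 and 10.3, and another gained locus past its end with 12.2 and 13.3. With FCY2 and AAH1, MTD1 made 3 of 14 placed genes of purine synthesis and salvage, against 3.9% of all placed genes. Of the 14, 6 had a 6 h locus of any kind.

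A locus at the convergent ends of MF(ALPHA)1 and UIP4 had scores of 17.9 and 12.7, with the nearest 0 h summit 5192 bp away. MF(ALPHA)1 encodes the precursor of alpha-factor, the pheromone of alpha cells. STE4, the G protein beta subunit of the pheromone response, had 9.10 and 5.35 at a point 121.5 bp past its stop codon and 5488.5 bp from a 0 h summit. The convergent SAS5 also ends within 500 bp of that locus. MF(ALPHA)1 and STE4 were 2 of the 11 placed mating genes (18.2%, against 3.9% of all placed genes). No other of the 11 had a summit within 250 bp in any library. Among those without were STE3, the a-factor receptor of alpha cells, and STE6, the a-factor exporter.

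Ribosome biogenesis genes, whose products process ribosomal RNA and assemble the subunits in the nucleolus, had 11 members with a gained locus among 67 placed, against 3.9% of all placed genes. In all, 30 of the 67 had a 6 h locus of any kind, and over all placed genes with a 6 h locus 24.4% had a gained one. SOF1 of the small-subunit processome had 10.6 and 13.1, almost on its stop codon. NOC4, of the same machinery, had 14.3 and 10.8 at a point 89.5 bp past its stop codon, with a transfer RNA gene within 250 bp. A locus past CBF5, the pseudouridine synthase of box H/ACA particles, had 11.4 and 10.2, and it lies past the end of RFX1 as well. CBF5 had 0 h summits in both replicates, with 10.9 and 6.32. CSL4, of the exosome, had 21.0 and 19.6 but overlaps the region past PDR16, where both 0 h libraries had a summit in the gene.

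The other 7 members were weak. IMP4, of the U3 particle, had 9.10 and 4.99, REA1, an assembly ATPase, 3.29 and 4.30, ERB1 4.41 and 3.97, NUG1 4.91 and 3.19, and RCL1 2.92 and 5.35. The RCL1 locus lies nearer to the end of the convergent MDM12, 94.5 bp past it. NAN1 had 2 gained loci, with 3.29 and 3.97 at one and 5.52 and 2.43 at the other. RRP5 had 4.73 and 3.18 at one and 3.29 and 2.26 at the other. Inside the gene, 8 of the 67 had a gained locus. TOD6 and DOT6, repressors of ribosome biogenesis genes, were chosen after their values were seen, as were MAE1, GPD2, PDR12, RPC37, KAP123, RIP1, QCR2 and BDF1. TOD6 had 2 gained loci, with 7.69 and 12.7 inside the gene and 6.79 and 12.7 between its end and that of the convergent SAS3. DOT6 had 2.92 and 4.32.

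Aminoacyl-tRNA synthetases, which charge transfer RNAs, had 4 of 10 placed members with a gained locus, namely ALA1, GLN4, ILS1 and GRS2, against 3.9% of all placed genes. This was 4 of 6 members with a 6 h locus of any kind, against 24.4% over all placed genes with one. ALA1 had 3.64 and 4.64 and, further along the gene, 7.69 and 3.30. GLN4 had 5.12 and 3.69, and ILS1 had 3.29 and 4.30 inside the gene and 5.52 and 7.76 past its end. The GRS2 locus is the one past the TEF1 stop codon. Transporters of the plasma membrane had 4 of 33 (12.1%, with GAL2, LYP1, FCY2 and TPO3), and TPO3, a polyamine exporter, had 3.99 and 4.30. Of the 33, 10 had a 6 h locus of any kind.

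Other lists had at most 2 members with a gained locus in the gene or within 250 bp, to be read against 3.9% of all placed genes. Over all placed genes with a 6 h locus of any kind, 24.4% had a gained one. Translation factors had 2 of 28 (7.14%), TEF1 and PRT1, an initiation factor 3 subunit with 11.0 and 9.29. Amino acid synthesis had 2 of 35 (5.71%, ARG8 and ARO7, both at loci between convergent genes). Chaperone and stress genes had 2 of 29 (6.90%, SSE1 and UBI4), and DNA damage and repair genes 2 of 30 (6.67%, RFX1 and UBI4). Respiration and the TCA cycle had 1 of 29 (3.45%, COR1, with 7.24 and 3.26) and cell wall genes 1 of 29 (3.45%, YGP1, with 6.49 and 10.1). A 6 h locus of any kind was held by 14 translation factor genes and 11 of amino acid synthesis. With 2 of 14 and 2 of 11 gained, both lists are below 24.4%. It was held by 5 chaperone and stress, 6 DNA damage and repair, 2 respiration and TCA cycle and 12 cell wall genes. None was found at the 10 placed genes of glycolysis and ethanol formation, 13 of glucose-repressed metabolism, 21 of fatty acid and sterol synthesis, 16 of the proteasome, 9 histone genes and 24 cell cycle genes, although 10 of the 16 proteasome genes had a 6 h locus. A 6 h locus was rare in some of these lists, held by 2 glycolysis, 1 glucose-repressed and 2 cell cycle genes. It was held by 3 histone and 7 fatty acid and sterol genes. Within 500 bp, the window used above for RIP1, QCR2 and ACC1, respiration and the TCA cycle had 3 of 29 genes and fatty acid and sterol synthesis 3 of 21. Listed genes as a whole rose from 43 to 66 in that window, and its share over all placed genes was not computed. In all, 43 of the 134 genes with a gained locus belonged to one of the 19 lists.

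RNA genes were rarely the nearest feature. Of the 123 loci, 1 lay within 250 bp of a small nucleolar RNA gene and 3 of a transfer RNA gene, against 31 and 8 of 355 kept loci. The former was SNR72, the last of a tandem array of 7 small nucleolar RNA genes (SNR78 to SNR72) on chromosome XIII. It had 73.6 and 81.0 at 6 h, at 298643 and 298656 bp. The 0 h summits, with 87.5 and 87.7, lay at 297506 and 297665 bp, near the first genes of the array, so this locus too had its 0 h summits upstream. Beside the methionine transfer RNA gene EMT2 the scores were 17.0 and 41.5, the largest ratio between replicates among the 25 ranked loci.

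Gained loci gathered near stop codons. Of the 123, 83 lay within 250 bp of one (67.5%, exact 95% interval 58.4% to 75.6%), against 73.0% of kept loci, 28.8% of the 118 loci found only at 0 h, and 21.8% of all bases of these chromosomes. Only 16 lay within 250 bp of a start codon. Inside genes were 68 loci (55.3%), with 25 between convergent, 26 between tandem and 4 between divergent genes. Of all bases of these chromosomes, 73.4% lie inside protein-coding genes, so 55.3% is below the base share. For kept loci the share inside genes was 41.1% and for loci found only at 0 h 77.1%. Between convergent genes lay 20.3% of gained and 31.0% of kept loci, and between tandem genes 21.1% and 24.5%. Within genes, with the start codon set to 0 and the stop codon to 1, the median position was 0.799 from the replicate 1 summits and 0.887 from the replicate 2 summits of gained loci, 0.880 and 0.822 at kept loci and 0.428 and 0.406 at loci found only at 0 h. Both 6 h classes thus sat towards the stop codon. The 0 h class was spread over genes, with lower and upper quartiles of 0.227 and 0.684 by locus midpoints.

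The difference in position between the time points could be set against the replicate spread by taking each library alone. Among summits without a summit of the other time within 500 bp, 55.0% and 58.2% lay within 250 bp of a stop codon in 6 h replicates 1 and 2, and 30.8% and 25.5% in 0 h replicates 1 and 2. The means were 56.6% ± 2.29 and 28.2% ± 3.75 (SD, n = 2 each), a difference of 28.4 percentage points that exceeds the spread between replicates. The share inside genes was 61.7% ± 3.57 at 6 h and 78.8% ± 2.36 at 0 h (SD, n = 2 each). Permuting the finished library values gave p = 0.333 for both (two-sided permutation test, the smallest p that 2 against 2 libraries allow). This p decides nothing, since the summits were chosen by the lists of the other time and not chosen again under exchanged labels. The libraries of the time points did not overlap in either measure. Numbers of such summits did not separate the times, with 35.6% and 32.4% of placed summits at 6 h and 31.9% and 33.3% at 0 h.

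**Figure D4:**
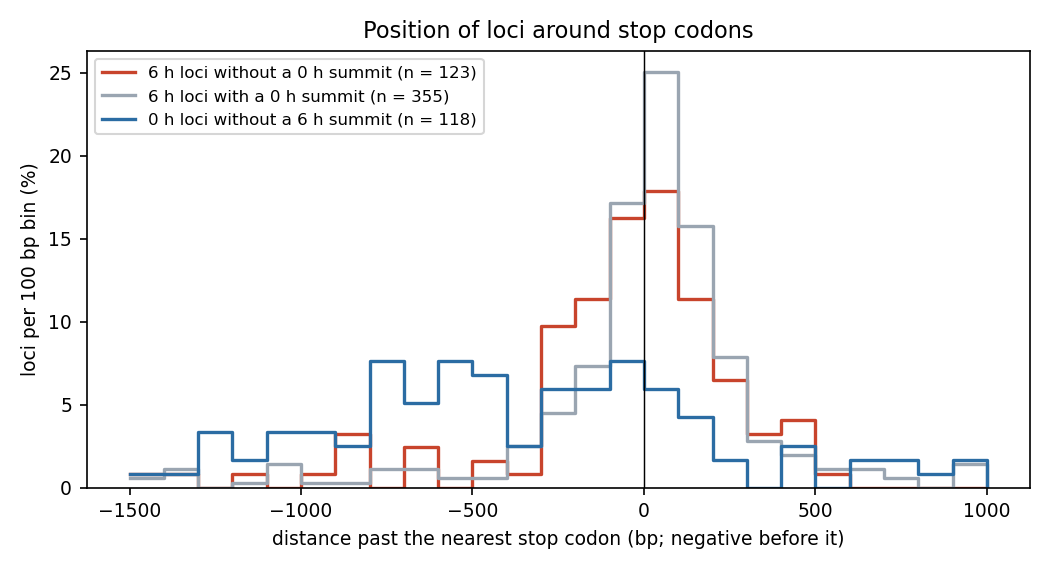
Distance of loci past the nearest stop codon (bp, negative before it), as the percentage of each class per 100 bp, for 123 gained loci (red), 355 kept 6 h loci (grey) and 118 loci found only at 0 h (blue). Both 6 h classes peak around the stop codon, and the 0 h class is spread over the gene.

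Where the nearest 0 h summit lay also divided the members. Of all 216, 55 had it at 500 to 1000 bp, 38 at 1000 to 2000 bp, 63 at 2000 to 5000 bp, 39 at 5000 to 10000 bp and 21 beyond 10000 bp. Median scores in the first of these classes were 14.1 and 19.6, and in the others 5.29 to 6.51 in replicate 1 and 5.67 to 7.14 in replicate 2. The members just inside the 500 bp limit were at COR1 (507 bp), RPL18B (508 bp) and RPS6B (509 bp). Just outside it were 6 h loci at NNT1 (497 bp), CLN2 (495.5 bp) and RPL10 (485 bp, with scores of 66.9 and 98.5). Loci close to the limit on both sides thus include ribosomal protein genes, of which RPL18B had lower scores, 13.1 and 27.0.

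On the chromosomes without placed genes, 8 of 93 gained loci had a lower percentile of at least 90, against 6 of 123 on the others. The strongest lay on chromosome IV at 46603 and 46640 bp in replicates 1 and 2, with scores of 79.7 and 135 and a 0 h summit 1159.5 bp away. One at 250793 and 250797 bp of chromosome IX had 78.7 and 131, but lay 526 bp from a 0 h summit. Another on chromosome IV, at 380603 and 380419 bp, had 69.9 and 124 and was 5708 bp from any 0 h summit, a distance like that of GAL10. Genes at these positions were not analysed here. Gained loci were spread out, and 60 of the 216 had another within 5000 bp and 20 within 1000 bp.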

How the data were processed

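Each of the 4 immunoprecipitated libraries came as its own deposited summit list, so replicates were not pooled. The deposited score is a −log10 significance by the authors' peak caller, and whether it was adjusted is not stated. MACS2 2.2.7.1, Bowtie2 2.2.4, fastp 0.20.1 and SAMtools 1.10 are named, without roles, in the submitters' processing notes. No source used here gives the genome build, the threshold or the control. Read depth is unknown, and shares carry exact binomial intervals.

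Samples were grouped by their titles. Loci were built with Python 3.11.15, pandas 2.3.3 and SciPy 1.17.1, and the rule was tested on simulated data. Gene names and positions came from RefSeq R64, and strand from systematic names. Coordinates were checked by sliding landmark genes in steps of 100 bp over 12000 bp. The members, gene lists and chromosomes were chosen with earlier results of these data known. Named genes were those at the 25 placed loci with the highest lower percentile, list members within 250 bp of a gained locus, and the 3 loci on each side of the 500 bp limit. One gene that meets this rule is not reported here. Others were named after their values were seen. The planned promoter motif search was not run, and no sequence was used. Permutation tests ran over library values only, and the summits were not chosen again under exchanged labels.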

Additional observations from a re-analysis of the deposited data

How the results depend on the processing

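The count of 216 gained loci fell to 143 with 6 h summits joined within 100 bp and was 255 with joining within 500 bp. With 0 h summits sought within 250 and 1000 bp it was 294 and 161. Restricting each list to its better-scoring 50% left 114, of which 70 were among the 216. Without each library in turn the count was 293 to 470, since fewer lists make the rule easier to meet. The share of 26.7% went to 36.3% and 19.9% with 0 h summits sought within 250 and 1000 bp, and was 33.2% to 36.5% without 1 library. The 55.3% inside genes became 45.2% with 100 bp joining, 37.0% with the better-scoring 50%, 92.7% with genes extended by 250 bp, and 50.0% to 64.2% without 1 library. The 26.3% at genes with 0 h summits became 38.1% and 8.99% with 0 h summits sought within 250 and 1000 bp, and 22.1% to 37.8% without 1 library. Median position was 0.778 to 0.847 without 1 library. Listed genes at gained loci were 43, and 20 with the locus inside the gene or 66 within 500 bp. The cause of changes not fixed by the rule itself was not tested. Of 70 alternative values of these main results, 51 were labelled as unchanged, and of 42 for single lists 23 were. The label meant within the counting interval or the replicate spread, or for counts a similar size. For counts this was loose, as values from 161 to 294 passed as similar to 216, so the label does not show a stable count.

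Replicate numbers recur at both times, but deviations of libraries sharing a number correlated at -0.0024 (3432 genes), which gives no sign of pairing. Under a replicate block, where each 6 h summit meets only the 0 h list of its own number, 216 loci were gained, 212 of them the same, with 56.0% inside genes and 27.5% at genes with 0 h summits.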
